A study of Sus scrofa with 48 samples.

Results

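The deubiquitinating enzymes, the proteases that take ubiquitin off other proteins, were examined in the perirenal adipose tissue (PRAT) of 48 pigs, in which 33 genes of this class were measured among 7891 genes in all. A gene entered when the name given to its probe in the scanner files began with USP and a digit, OTUD, OTUB or UCHL. These names covered 71 probes, of which 70 were well above background on at least 24 of the 48 arrays, and every one of the 33 genes kept at least 1 probe. Each gene was read from its brightest probe, and on all 48 arrays 32 of these 33 probes passed that mark, the exception being that of USP11. The pigs were Large White barrows of 132 days of age, from a line selected for low residual feed intake (low RFI) or from a line selected for high residual feed intake (high RFI). Residual feed intake is the feed eaten beyond the amount predicted, so low RFI pigs are the more efficient. Pigs of each line ate freely from a diet high in fat and fiber (HF) or from one low in fat and rich in starch (LF), labelled as low in fiber, with 12 pigs in each of the 4 groups. The diets differ in fat, starch and fiber together, so these components cannot be told apart. As the paper reports, HF pigs also ate less and ended lighter and leaner. Effects of the diet's composition cannot be told apart from these differences here. The lines came from divergent selection, and no allele is named for either. Each pig gave 1 array, and values are log2 Cy3 signals relative to the median probe of the array.

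Ubiquitin is a small protein that is attached to other proteins in chains, and many such chains send their carrier to the proteasome for breakdown. Deubiquitinases cut these chains, return free ubiquitin to the cell, mature the ubiquitin precursors and remove ubiquitin marks from histones, receptors and signalling proteins. In fat cells, as elsewhere, they act on the stability of enzymes and transcription factors.

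The median signal of an array lay between 115 and 178 and between 38875 and 47814 probes per array were well above background. The number of arrays limits the precision. No array stood apart, since each correlated with the median of the other arrays of its group with r between 0.982 and 0.995 across probes. The 6 slides held 2 arrays of every group each, so neither diet nor line was confounded with slide or with the 2 scan days. No member probe was saturated on any array. Of the 1584 spots behind the 33 genes, the scanner software marked 1 as an outlier, a USP37 spot described with that gene.

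Some of the probes behind the results below are given here, without those of USP10 and USP45 and without further ones of UCHL5 and UCHL3. Several genes are read by more than 1 probe, and the value of a gene rests on where its probes lie. All have 60 bases, are written 5′ to 3′ as the scanner files hold them, and are numbered from the brightest within a gene. Capitals mark stretches of 20 or more bases that a probe shares with another probe of the same gene.
UCHL1 probe 1: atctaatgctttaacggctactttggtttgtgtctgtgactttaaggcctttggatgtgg
UCHL1 probe 2: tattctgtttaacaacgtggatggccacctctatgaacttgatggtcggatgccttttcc
UCHL5 probe 1: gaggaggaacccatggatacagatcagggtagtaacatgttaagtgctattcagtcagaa
UCHL5 probe 3: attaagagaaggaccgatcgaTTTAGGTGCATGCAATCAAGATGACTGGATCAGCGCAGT
UCHL5 probe 4: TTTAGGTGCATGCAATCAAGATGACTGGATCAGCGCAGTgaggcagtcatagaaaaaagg
UCHL3 probe 1: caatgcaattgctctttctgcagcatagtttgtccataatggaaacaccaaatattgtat
USP14 probe 1: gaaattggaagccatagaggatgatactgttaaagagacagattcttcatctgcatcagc
USP32 probe 1: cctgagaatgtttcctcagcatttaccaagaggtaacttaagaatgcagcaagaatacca
USP32 probe 2: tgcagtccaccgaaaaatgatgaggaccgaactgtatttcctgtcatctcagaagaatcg
USP30 probe 1: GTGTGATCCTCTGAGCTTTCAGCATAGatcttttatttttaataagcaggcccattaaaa
USP30 probe 2: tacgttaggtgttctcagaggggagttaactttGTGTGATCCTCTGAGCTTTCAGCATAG
USP37 probe 1: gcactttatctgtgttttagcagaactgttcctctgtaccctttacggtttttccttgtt
Probes 3 and 4 of UCHL5 share 39 bases and the probes of USP30 share 27, so that these pairs read overlapping RNA. The pairs of UCHL1 and of USP32 share no such stretch.

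With diet, 6 of the 33 genes were lower in HF pigs, namely UCHL1, UCHL5, UCHL3, USP14, USP10 and USP45, and USP32 was higher. All 3 genes of the UCHL type, and both enzymes that dock on the proteasome, were among those lower. A gene was called when limma gave a raw p under 0.01, a fold change over 1.1 and a Benjamini-Hochberg (BH) adjusted p under 0.08, the adjustment running over all 43355 probes tested. In the background of 7891 genes, 18.6% were called as lower and 6.26% as higher in HF pigs, against 18.2% and 3.03% of the deubiquitinases. The share called as lower was thus near the background and that called as higher is 1 gene, so the count by itself is no result about the class. The median log2 difference, HF minus LF, was -0.07 over the 33 genes and -0.05 over all genes, and 25 of 33 genes, or 75.8%, lay below 0, as did 63.0% of all genes. The 26 genes not called lay between -0.17 and 0.21, and for 8 of the 33 genes the 95% interval stayed within a fold of 1.1.

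**Figure D1:**
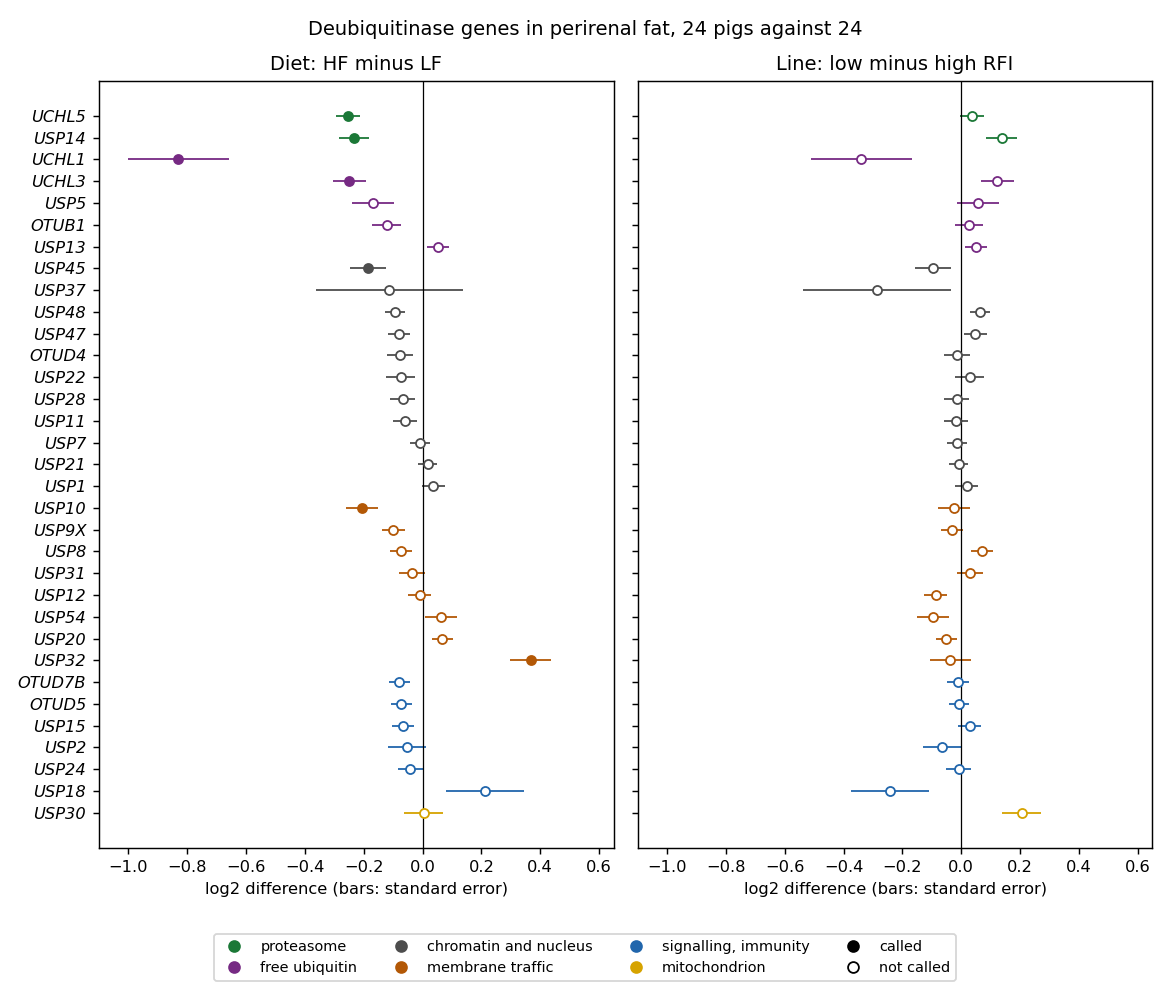
Log2 difference with its standard error for each of the 33 genes between diets (left, 24 HF against 24 LF pigs) and between lines (right, 24 low RFI against 24 high RFI pigs), coloured by role, with filled points for called genes. UCHL1 lies far to the left at -0.83 and USP32 to the right at 0.37 for diet, and no point is filled for line.

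The levels are relative, and the directions of small differences depended on the reference. Centring the arrays on the spike-in control transcripts in place of the median moved the median difference of all genes by 0.15 on the log2 scale, and under it 7 of the 33 genes lay below 0, with UCHL1 called as lower and USP32, USP20, USP13, USP1 and USP21 called as higher. Over all genes, 74.8% of the diet calls were lower in HF pigs, a share of 56.9% to 78.8% under 4 other scalings and of 10% with spike-in centring. UCHL1 and USP32 were called in their direction under all 5 other scalings, and UCHL5, UCHL3 and USP14 under all of these but the spike-in centring, where their differences of -0.11, -0.10 and -0.09 were not called. In bulk tissue, fewer cells of a type and less RNA per cell cannot be told apart, and this holds for every value here.

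The 2 deubiquitinases that bind the regulatory particle of the proteasome, where they trim chains from arriving substrates, were both lower in HF pigs. UCHL5 ranged from 3.73 to 4.26 (median 4.03) in HF pigs, and from 4.05 to 4.66 (median 4.24) in LF pigs. The groups overlapped little, as all 24 HF pigs were under the LF mean and 14 of them were under every LF pig. HF minus LF gave -0.25 on the log2 scale (standard error, SE, 0.041, adjusted p = 1.47e-05), a fold of 1.19, and the value lay between -0.34 and -0.17 within the 6 slides. USP14, whose activity is switched on by docking to the proteasome, ranged from 1.92 to 2.58 (median 2.24) in HF pigs, and from 2.17 to 2.98 (median 2.50) in LF pigs. Its groups overlapped, with 21 of 24 HF pigs under the LF mean and 7 below every LF pig. The difference was -0.23 (SE 0.051, adjusted p = 0.000682) and was below 0 on all 6 slides. The array held 1 passing probe for USP14 and 5 for UCHL5, all 5 of which were called as lower, between -0.28 and -0.21.

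Of the 5 enzymes grouped here under free ubiquitin, its precursors or chains, UCHL1 and UCHL3 were lower in HF pigs and the other 3 were not called. UCHL1 is abundant in neurons and endocrine cells, where it is thought to keep a pool of free ubiquitin. It ranged from 1.42 to 3.33 (median 1.93) in HF pigs and from 1.05 to 4.41 (median 2.97) in LF pigs. The ranges overlapped widely, the lowest pig of all being an LF pig, yet 22 of 24 HF pigs were under the LF mean and 7 LF pigs lay above every HF pig. The mean level was 2.11 ± 0.56 (SD, n = 24) in HF and 2.94 ± 0.69 (SD, n = 24) in LF pigs, so that HF minus LF was -0.83 (SE 0.17, adjusted p = 0.000315), a 1.78-fold lower signal and the largest diet difference among the 33 genes. On single slides it lay between -1.17 and -0.33. The second UCHL1 probe gave -0.71 and followed the first with r = 0.969 over the 48 pigs after group means were removed, a value that shares the same hybridisations.

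UCHL3, which also cuts the ubiquitin-like protein NEDD8, ranged from 3.53 to 4.18 (median 3.88) in HF pigs and from 3.69 to 4.62 (median 4.11) in LF pigs. In spite of this overlap 23 of 24 HF pigs had a level under the LF mean. The difference was -0.25 (SE 0.056, adjusted p = 0.000746), and all 4 UCHL3 probes were called as lower. Probes 3 and 4 of UCHL3 share 28 bases and read overlapping RNA. USP5, the main enzyme that takes apart unanchored chains, ranged from 1.16 to 2.18 (median 1.54) in HF pigs and from 1.35 to 2.08 (median 1.75) in LF pigs. Its difference of -0.17 (SE 0.071, adjusted p = 0.0682) passed the adjusted threshold but had a raw p of 0.0217 and was not called, and 1 of the 6 slides went the other way. OTUB1, which cuts chains linked through lysine 48 and also blocks some conjugating enzymes, gave -0.12 at its brightest probe, short of the fold and raw p thresholds, while its second probe was called at -0.17 (adjusted p = 5.4e-05). USP13, a close relative of USP5, gave 0.05 (adjusted p = 0.285).

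**Figure D2:**
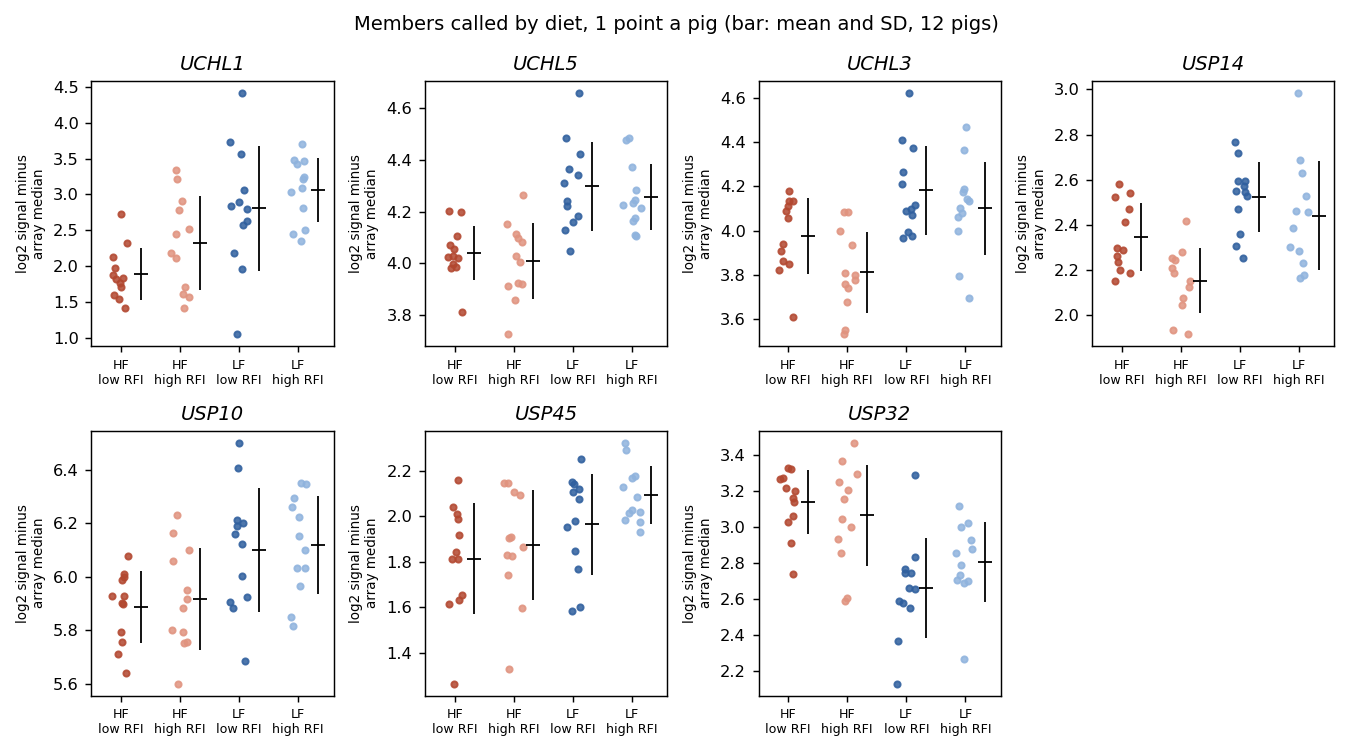
Log2 signal relative to the array median for the 7 genes called by diet, with 1 point per pig in the 4 groups of 12 pigs and a bar for the mean and SD. The UCHL5 points of HF pigs (3.73 to 4.26) lie mostly under those of LF pigs (4.05 to 4.66), those of UCHL1 overlap widely, and USP32 is the gene with higher HF points.

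Among the 11 members that act on chromatin, DNA repair or other nuclear substrates, USP45 was called and 10 were not. USP45, which acts on the repair nuclease subunit ERCC1, ranged from 1.27 to 2.16 (median 1.85) in HF pigs and from 1.58 to 2.32 (median 2.05) in LF pigs. The groups overlapped over most of their range, and 18 of 24 HF pigs had a level under the LF mean. Its difference was -0.18 (SE 0.061, adjusted p = 0.0196). The dimmer USP45 probe went the same way at -0.08 (SE 0.052) but was not called. USP7, which controls the stability of MDM2 and p53, had a median of 5.37 in HF pigs between 5.18 and 5.58, and of 5.41 in LF pigs between 5.20 and 5.66. Its difference of -0.01 (adjusted p = 0.862) had a 95% interval from -0.08 to 0.06, inside a fold of 1.1. The others were USP48 (-0.09), USP47 (-0.08), OTUD4 (-0.08), USP22 (-0.07), USP28 (-0.07), USP11 (-0.06), USP21 (0.02) and USP1 (0.04). USP22 removes ubiquitin from histones within the SAGA complex, and USP1 acts on FANCD2 and PCNA in DNA repair.

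USP37, a nuclear enzyme known to stabilise cyclin A, rested on 1 spot. In LF high RFI pig 8 its signal was 8.72, while the other 47 arrays lay between 2.13 and 2.97. The scanner software marked that spot as an outlier, and it was the sole such spot of the 33 brightest probes. With it, the difference was -0.11 (SE 0.25, adjusted p = 0.764). With such spots left out, a choice made after seeing the data, the level was 2.68 ± 0.16 (SD, n = 24) in HF and 2.53 ± 0.13 (SD, n = 23) in LF pigs, and the difference of 0.14 (SE 0.043, adjusted p = 0.0112) was called as higher, which raised the calls for diet from 7 to 8. The cause of the bright spot was not tested.

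The 8 members known from endosomes, membrane traffic or the cytoskeleton held 1 gene called in each direction. USP10, a cytoplasmic enzyme that binds the stress granule protein G3BP and returns receptors and channels from endosomes, ranged from 5.60 to 6.23 (median 5.91) in HF pigs and from 5.69 to 6.50 (median 6.14) in LF pigs. The groups overlapped, with 22 of 24 HF pigs under the LF mean, and the difference was -0.21 (SE 0.054, adjusted p = 0.00342). It was called by 2 of 3 probes, but its value after quantile normalization, -0.12, was not called.

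USP32, an enzyme anchored in membranes of the Golgi and late endosomes that acts on RAB7, was the gene called as higher. It ranged from 2.59 to 3.47 (median 3.16) in HF pigs and from 2.13 to 3.29 (median 2.74) in LF pigs. The ranges overlapped, though 22 of 24 HF pigs had a level over the LF mean and 5 above every LF pig. The level was 3.10 ± 0.23 (SD, n = 24) against 2.73 ± 0.26 (SD, n = 24), a difference of 0.37 (SE 0.069, adjusted p = 9.6e-05) or 29.1% more signal, and it lay between 0.18 and 0.51 on the 6 slides. The other USP32 probe was well above background on 26 arrays and gave 0.08 (adjusted p = 0.276), and the pair correlated within groups with r = 0.290 over the 48 pigs. The value of USP32 thus rests on 1 of its 2 probes, both printed above.

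The remaining 6 traffic genes were not called. USP9X, which acts on many substrates in the cytoplasm, gave -0.10 (adjusted p = 0.0432) and missed the fold and raw p thresholds. USP8, which acts on receptors sorted at the endosome, had 8 probes, all of them below 0 between -0.12 and -0.004 and none called. USP31 (-0.04), USP12 (-0.01), USP54 (0.06) and USP20 (0.07) were closer to 0.

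None of the 6 members known from signalling or immunity was called by diet. USP18 cuts the ubiquitin-like protein ISG15 from its carriers and dampens the interferon receptor. It ranged from 4.76 to 6.41 (median 5.64) in HF pigs and from 4.46 to 6.94 (median 5.45) in LF pigs, and both groups overlapped almost fully. The difference was 0.21 (SE 0.13, adjusted p = 0.229), with a 95% interval from -0.05 to 0.48, and its second probe gave 0.20. USP2, an enzyme tied to the circadian clock, ranged from -0.65 to 0.40 (median -0.16) in HF pigs and from -0.48 to 0.30 (median -0.06) in LF pigs. Its difference was -0.05 (SE 0.066, adjusted p = 0.574), with a 95% interval from -0.19 to 0.08. OTUD7B (-0.08) and OTUD5 (-0.07), which act on NF-kappa B and interferon signalling, and USP15 (-0.07) and USP24 (-0.04) were of like size. USP30, the outer mitochondrial membrane enzyme that opposes the removal of damaged mitochondria, gave 0.003 between diets.

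**Figure D3:**
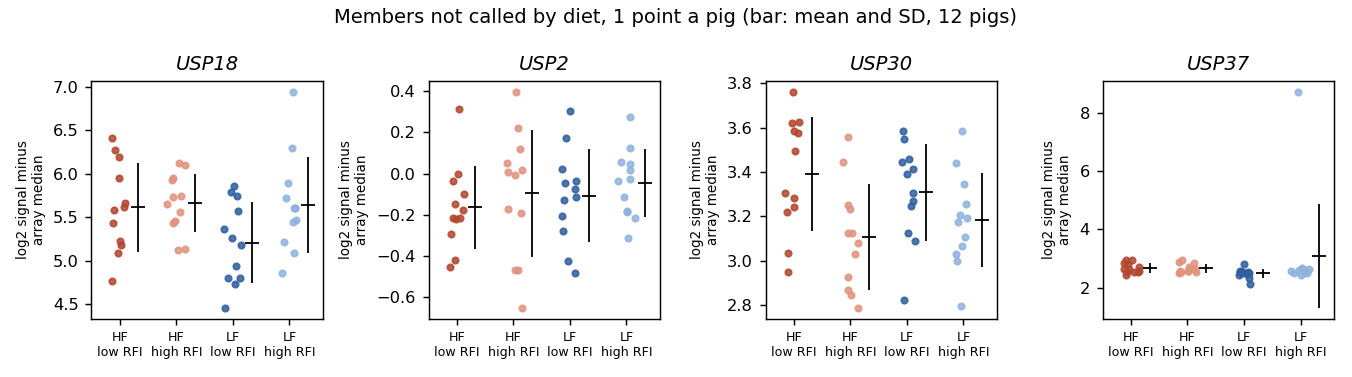
Log2 signal relative to the array median for USP18, USP2, USP30 and USP37, with 1 point per pig in the 4 groups of 12 pigs and a bar for the mean and SD. No diet shift was called for these genes, and 1 USP37 point at 8.72 lies far above all others. The USP30 points overlap between lines, with a higher mean in low RFI pigs that was not called.

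A few relations between a member and genes tied to it by known function were tested across the 48 pigs on deviations from group means, with 100000 permutations within groups, two-sided, and BH adjustment over the 3. USP18 went with the mean of 15 interferon response genes, with Pearson's r = 0.572 (permutation p = 0.00013, adjusted p = 0.00039) and Spearman's rho = 0.499 (permutation p = 0.00062, adjusted p = 0.00186). Without the 2 pigs farthest from the median of that mean, r was 0.430. It was 0.465 in HF pigs, 0.655 in LF pigs, 0.567 in low RFI pigs and 0.584 in high RFI pigs. When slide means were removed as well, r was 0.573 (permutation p = 0.0197, adjusted p = 0.0591), with rearrangements then limited to 2 arrays at a time. USP2 and 8 clock genes gave r = -0.14 (permutation p = 0.341) and rho = -0.14 (permutation p = 0.368), with r = -0.14 without the 2 farthest pigs. That clock list mixes genes known to peak at different times of day, such as ARNTL and PER2. Its mean can cancel a link, so this value does not decide whether USP2 follows the clock. UCHL1 and 9 genes of nerve and chromaffin cells gave r = 0.113 (permutation p = 0.436) and rho = 0.157 (permutation p = 0.308), with r = 0.230 without the 2 farthest pigs. Neither of these was past the threshold, and their adjusted p values for r were 0.436. When slide means were also removed, USP2 gave r = -0.37 and UCHL1 r = 0.114.

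Probes of the same gene mostly pointed the same way. Of the 18 genes with several passing probes, 15 had all probes on the same side of 0, and 13 of these were below it. Probes named in lower case, described at the end, were not counted here. Over all 70 probes tested, 59 were below 0, 16 were called as lower and 1 as higher. Of all 43355 probes tested, 56.1% were below 0, 14.5% were called as lower and 8.57% as higher, and probes of a gene are not independent. The pair of OTUD4 probes holds the same 60 bases under different names and gave -0.08 and -0.07.

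**Figure D4:**
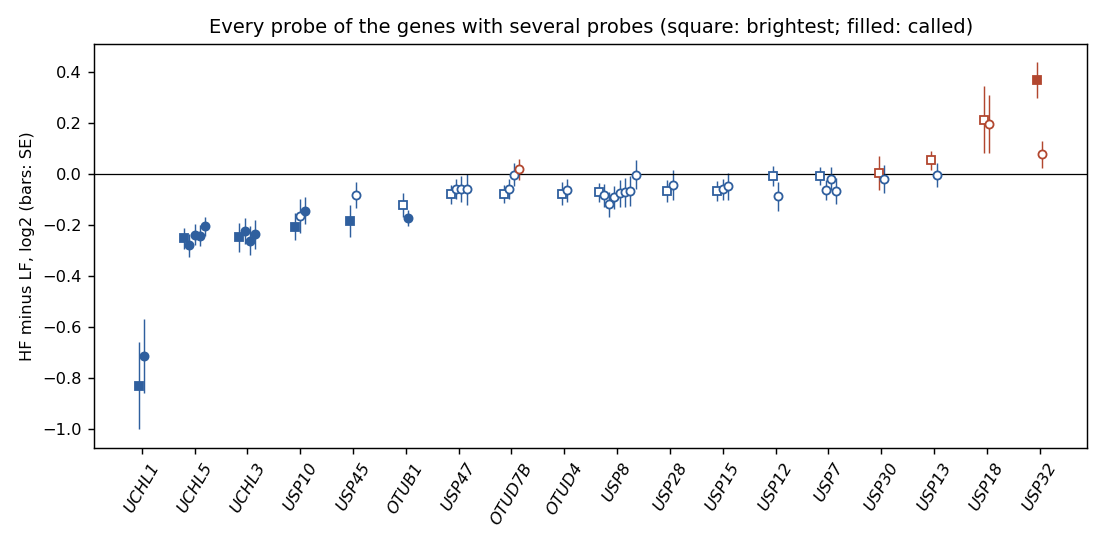
Log2 difference between diets with its standard error for every probe of the 18 genes with more than 1 passing probe, squares for the brightest probe and filled symbols for called probes. The 5 UCHL5 probes and the 4 UCHL3 probes lie close together near -0.25, whereas the pair for USP32 is apart at 0.37 and 0.08.

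Between lines, none of the 33 genes was called, while 1.63% of all genes were called as higher and 1.34% as lower in low RFI pigs. The median difference, low minus high RFI, was -0.01, with 14 genes above and 19 below 0, and a raw p under 0.05 was seen by limma for 4 genes or 12.1%, against 12.2% of all genes, so this share is the background. The ANOVA named in the methods called none either. USP30 was nearest to a call. It ranged from 2.82 to 3.76 (median 3.35) in low RFI pigs and from 2.79 to 3.58 (median 3.12) in high RFI pigs. The lines overlapped, with 19 of 24 low RFI pigs above the high RFI mean. The difference of 0.21 (SE 0.066, adjusted p = 0.0864) was 0.29 in HF pigs and 0.13 in LF pigs, and it was called under other settings, with adjusted p = 0.0433 when slide was taken as a block. Its second, overlapping probe gave 0.10 (adjusted p = 0.459). The other 3 were USP14, at 0.14 (adjusted p = 0.178), UCHL3, at 0.12 (adjusted p = 0.323), and USP12, at -0.09 (adjusted p = 0.324). UCHL1 gave -0.34 (SE 0.17, adjusted p = 0.411).

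The diet by line interaction called none of the 33 genes by limma or by the ANOVA, and 0% of all genes. USP28 was the sole member with a raw p under 0.05, at 0.0439. The diet difference had the same sign in both lines for 28 of the 33 genes. UCHL1 gave -0.91 in the low and -0.75 in the high RFI line, UCHL5 -0.26 and -0.25, and USP10 -0.21 and -0.20. USP14 gave -0.18 and -0.29 (raw interaction p = 0.282), UCHL3 -0.21 and -0.29 and USP45 -0.15 and -0.22. USP32 gave 0.48 and 0.26 (raw interaction p = 0.117), and USP18 0.41 and 0.02 (raw interaction p = 0.147). No difference between lines in the diet response was detected for these genes.

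**Figure D5:**
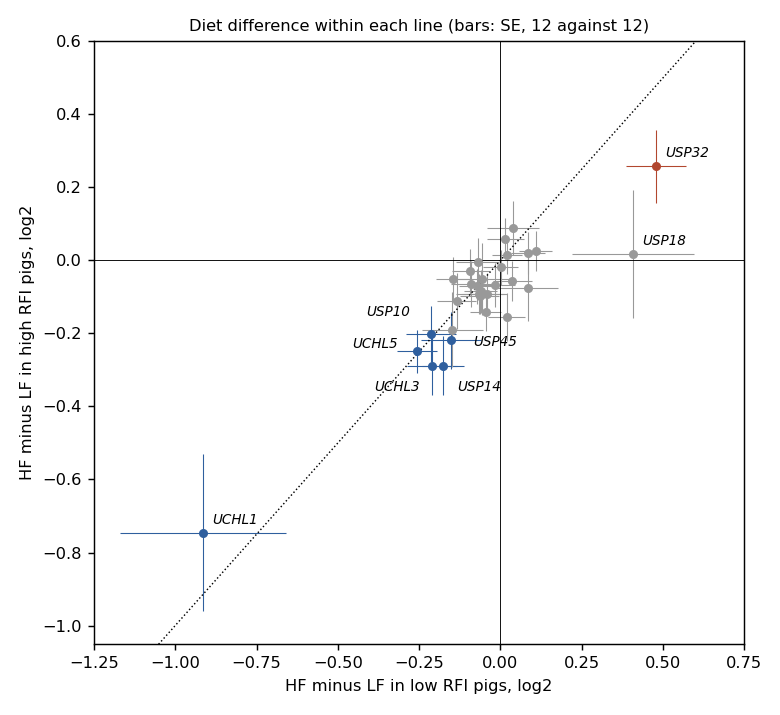
Diet difference on the log2 scale in high RFI pigs against that in low RFI pigs for 32 genes (USP37 with its outlying spot left off), with standard errors of 12 pigs against 12 and a dotted line of equality. Called genes are coloured, and UCHL1 (-0.91 and -0.75) and USP32 (0.48 and 0.26) lie at opposite ends.

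Other genes of the ubiquitin system were counted in the same way. Over all genes, 18.6% were called as lower and 6.26% as higher in HF pigs, and 1.34% as lower in low RFI pigs. Of 32 deubiquitinases with other kinds of names, 20 were on the array and 19 tested. Among these 19, 12 were below 0, 5 were called as lower and none as higher, with a median difference of -0.03. The largest were PSMD14, the proteasome's own deubiquitinase, at -0.43 (SE 0.076), ZUFSP at -0.28 (SE 0.091), COPS5, which takes NEDD8 off cullins, at -0.26 (SE 0.049), and STAMBP, an endosomal enzyme, at -0.16 (SE 0.040). Of 7 tested partners of deubiquitinases, ENY2 (-0.30) and ATXN7 (-0.29), which hold USP22 in the SAGA complex, were called as lower, and STAM2, a partner of USP8 at the endosome, was called as lower in low RFI pigs at -0.17. Of 9 proteases for ubiquitin-like proteins, all 9 were below 0 and 4 were called, namely ATG4A (-0.26), PPPDE2 (-0.24), ATG4D (-0.19) and PPPDE1 (-0.18), against the background shares given above. Among 15 interferon response genes, 5 were below 0 and the median difference was 0.11, with IRF7 alone called, as lower at -0.39. Among 8 clock genes, 3 were below 0 and the median difference was 0.02, with NPAS2 alone called, as lower at -0.61.

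The tissue carried its markers, with the adipocyte list at a mean level between 8.64 and 9.17 in HF and between 8.72 and 9.35 in LF pigs. Of 7 adipocyte genes, 5 were below 0, and LEP (-0.94) and CIDEC (-0.24) were called as lower. ADIPOQ (0.08) and PNPLA2 (0.02) lay above 0 and were not called. Of 5 macrophage genes, CD163 (0.70), MRC1 (0.66) and AIF1 (0.36) were called as higher, with a list mean between 1.91 and 3.79 in HF and between 1.77 and 3.52 in LF pigs. Of 5 T and NK cell genes CD3G was called as higher at 0.34, with a list mean between -0.02 and 0.98 in HF and between -0.29 and 1.38 in LF pigs. These shifts with diet stand beside the values of UCHL1, USP32 and the other called members, and their part in those values was not tested. For UCHL1, the 9 nerve and chromaffin genes had a list mean between 1.22 and 2.51 in HF and between 1.05 and 2.27 in LF pigs, with STMN2 (-0.33) and CHGB (-0.15) called as lower and S100B called as higher in low RFI pigs at 0.42. The list mean was 1.71 ± 0.30 (SD, n = 24) in HF and 1.64 ± 0.32 (SD, n = 24) in LF pigs. The diet difference was above 0 for 4 of the 9 genes, among them GAP43 at 0.79 (SE 0.36, adjusted p = 0.0968) and NEFL at 0.73 (SE 0.42, adjusted p = 0.188), neither of them called. Of the lists for endothelium (5 genes), fibroblasts (5), adrenal cortex (4), muscle (5) and B and plasma cells (1), none had a gene called by diet, and the single tested kidney gene, AQP2, was called as lower at -0.63.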

How the data were processed

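The authors hybridised Cy3-labelled RNA of each pig to 1 one-colour Agilent array and read it with Feature Extraction 10.7.3.1. Spot intensity values and flags were deposited without normalization between arrays. The authors also deposited log2 values for 38142 probes, filtered and centred on the array median (R 2.10.0, per the submitters' processing notes). All 38142 entries matched a spot by value within 1e-06, but only 2 carried its name, so names and values were taken from the scanner files.

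Here log2 of the median spot signal minus the array median over 60305 non-control probes was fitted for 43355 probes with limma 3.58.1 in R 4.3.3 (diet, line, interaction), checked on simulated data. Python 3.11.15, numpy 2.4.6, pandas 2.3.3, scipy 1.17.1 and matplotlib 3.10.9 were used. All-gene counts cover genes with a symbol known to the reference tables. Members and lists were chosen with earlier results of these data known. Values were given in full for called members and for USP2, USP18, UCHL1, USP14, UCHL5, USP5, USP7 and USP32, for lists up to 4 called genes, and USP30 and USP37 were named after their values were seen. Names in lower case did not enter, which leaves out USP39. Alternatives covered scaling, filter, model, blocks, thresholds and probe choice. Names in any case, outlier flags and leaving out 1 array were added after seeing the data. Each array is a separate pig, so p-values measure the spread between pigs. One gene list is not reported here.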

Additional observations from a re-analysis of the deposited data

How the results depend on the processing

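The 7 calls for diet became 5 to 8 under the other scalings, filters, models and blocks, and 1 with a fold over 1.5. In low RFI pigs alone 4 genes were called, UCHL1, UCHL5, USP32 and USP9X. USP9X, at -0.15 there (limma adjusted p = 0.0648), is not among the 7. In high RFI pigs alone 4 genes were called, UCHL1, UCHL5, UCHL3 and USP14. UCHL1 was called under every alternative, between -0.91 and -0.68. UCHL3, UCHL5, USP14 and USP32 lost the call under 2 or 3 of 21 alternatives, USP10 under 6 and USP45 under 7. The sign of USP7 turned with the 75th percentile (0.0040), normexp (0.064), quantiles (0.062), the spike-in centring (0.14) and in low RFI pigs (0.00047), and that of USP2 with the spike-in centring (0.093). That of USP37 turned with the spike-in centring (0.033), in low RFI pigs (0.19), and without outlier spots or without LF high RFI pig 8 (0.14 in both), the latter 2 added after seeing the data.

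The 0 calls for line became 1, USP30, with the 75th percentile or median of the processed signal, normexp, quantiles, slide as a block and without LF high RFI pig 8, and 1, USP33, with names in any case. Same-numbered pigs lay on the same slide, and their deviations correlated with a mean r of 0.10. The mean r was 0.07 for arrays of the same slide and different groups, and -0.01 for other numbers and groups. As 38 of 72 pairs, not all, were over 0.1, the numbers were not taken as pairs, though numbers 4, 5 and 6 had means of 0.20, 0.22 and 0.35. The replicate block gave 7 calls for diet, 1 for line (USP30) and 0 for the interaction. USP37 is not in the deposited table and has no value there. Without its interaction term the model gives no interaction value. Of the relations, that of USP18 lost the threshold when slide means were removed (r = 0.57, BH p = 0.0591). That of UCHL1 passed it for rho (0.335, permutation BH p = 0.031) when group means were not removed. For r it did not pass there (0.249, permutation BH p = 0.131). Differences between groups enter that setting. The causes were not tested. Dim probes are limited by background.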

Other observations

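Some probes carry gene names in lower case and did not enter above. Read in any case, the names add 6 genes, USP19, USP25, USP33, USP39, USP40 and OTUD1, none of them called by diet. For USP28, USP1 and USP48, the probe named in lower case was brighter than the one used above. For USP28 it gave 0.04 between diets, against -0.07 above, so the sign depended on the probe. For USP1 it gave 0.08 and for USP48 -0.06, and none of these was called. Dimmer probes named in lower case were tested for USP24, UCHL3, USP47 and USP8. That of USP24 gave 0.02 between diets, against -0.04 above, and was not called. Those of UCHL3 (-0.19, called as lower), USP47 (-0.09) and USP8 (-0.12) kept the sign given above. USP33, an enzyme known to act on the beta-2 adrenergic receptor and on ROBO1, was called by line. Its level ranged from 3.01 to 3.78 in low RFI pigs, with a mean of 3.39 ± 0.20 (SD, n = 24), and from 2.40 to 3.49 in high RFI pigs, with a mean of 2.94 ± 0.28 (SD, n = 24), and all 24 low RFI pigs lay above the high RFI mean. The log2 difference was 0.45 (standard error 0.069, limma BH p = 2.92e-05). It was 0.44 (standard error 0.099) in HF pigs and 0.46 (standard error 0.094) in LF pigs, and was above 0 on 5 of 6 slides. It was read by 1 probe and was named after its value was seen.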
